A study of Mus musculus with 6 samples.

Results

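The 45 genes described here belong to the interferon response and to antigen presentation, and they were measured by RNA sequencing in the hearts of mice with and without Elac2. They were taken by gene name from the authors' deposited results table, where each of the 45 names matched 1 of 51888 rows. Elac2 is the gene of RNase Z, which cuts the trailing sequence off immature tRNAs both in mitochondria and in the nucleus. The 3 control mice are labelled L/L, and also Elac2 +/+, and carry no cre. The 3 knockout mice are labelled L/L, cre, and also Elac2 -/-, and the cre was driven by the muscle creatine kinase promoter. All mice are given as C57BL/6 and the tissue as whole heart, so endothelial, immune and other cells outside the muscle lineage are part of each sample. The controls lack cre, so the presence of cre and the loss of Elac2 cannot be told apart. For the mice's age the sources used here give no value.

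Interferons are secreted when a cell senses foreign or misplaced RNA or DNA. Sensors such as Ifih1 (MDA5) and Ddx58 (RIG-I), which bind double-stranded RNA, and cGAS, which binds DNA, signal through Irf3 and Irf7 to switch on interferon genes. Interferon receptors then activate a complex containing Stat2 and Irf9 that binds the interferon-stimulated response element in the promoters of antiviral genes. Interferon gamma raises the genes of antigen presentation. In a resting heart most of these genes are transcribed at a low basal level.

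The response element is shown first because it is the sequence through which the Stat2 and Irf9 complex acts. Promoters from RefSeq (GRCm38.p6) could be matched for 34 of the 45 members, 1 of them by its current symbol Cgas, and the 250 bases before each start were searched on both strands for the core of that element, 2 copies of GAAA with any 2 bases between them. The motif was present for 14 of the 34 members (41.2%) and for 3.46% of the 27025 genes with a promoter of that length. It was found for 3 of 10 members that were called lower in the test given below and for 10 of 23 that were tested and not called. The shorter gamma-activated site TTCNNNGAA was present for 6 of the 34 members (17.6%) and for 8.13% of all genes. In 1 member promoter the bases of both motifs overlapped. The stretches below surround the matches of 3 members called lower, Isg15, Oas1a and Stat2, and of 4 not called, Ifit1, Rsad2, Gbp7 and B2m. They are written 5' to 3' on the strand of the gene, with each match to the response element in capitals. Where the match is on the opposite strand it reads as 2 copies of TTTC with 2 bases between them.
Isg15, chr4:156200845-156200926, minus strand: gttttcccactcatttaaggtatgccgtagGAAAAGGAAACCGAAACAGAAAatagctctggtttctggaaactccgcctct
Oas1a, chr5:120907526-120907575, minus strand: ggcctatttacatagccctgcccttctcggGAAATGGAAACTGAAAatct
Stat2, chr10:128270248-128270315, plus strand: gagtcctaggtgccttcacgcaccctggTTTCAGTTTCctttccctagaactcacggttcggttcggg
Ifit1, chr19:34640755-34640843, plus strand: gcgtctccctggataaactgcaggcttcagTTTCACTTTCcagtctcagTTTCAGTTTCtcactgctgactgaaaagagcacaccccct
Rsad2, chr12:26456533-26456602, minus strand: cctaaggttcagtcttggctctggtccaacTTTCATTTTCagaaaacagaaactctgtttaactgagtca
Gbp7, chr3:142530253-142530322, plus strand: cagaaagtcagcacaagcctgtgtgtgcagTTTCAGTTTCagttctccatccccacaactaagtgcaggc
B2m, chr2:122147518-122147587, plus strand: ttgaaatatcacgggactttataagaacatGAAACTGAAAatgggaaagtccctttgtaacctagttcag
Isg15 holds 3 overlapping matches that begin 78 to 66 bases before its start, and Ifit1 holds 2 separate ones. A match is a run of letters and does not show that a factor binds there. Members with a match were found both among the genes called lower and among those not called.

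The libraries held between 9850100 and 14461110 counts. Mitochondrial-encoded features took 49.3 to 61.1% of counts in controls and 33.3 to 36.7% in knockouts. Elac2 itself was at 15.05, 14.00 and 13.01 CPM in controls and at 5.36, 5.63 and 6.52 CPM in knockouts (log2 fold change -1.27, SE 0.15, edgeR adjusted p = 2.12e-04), in the direction of the labels. Levels in CPM are counts divided by a library size scaled by TMM, which sets the bulk of tested genes equal between libraries. Cardiomyocyte markers summed to 36029 to 38421 CPM in controls and 18908 to 20563 CPM in knockouts, so heart muscle RNA was present throughout. Each group has 3 libraries from 3 mice, and the p-values measure the spread between them.

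Control 2 stood apart from the other controls for these genes. Of the 44 members that passed the filter on low counts, 36 were higher in control 2 than in the other controls (81.8%), whereas control 2 was the highest control for 29.6% of all tested genes. On the log2(CPM + 0.5) scale, the median member lay 0.34 above the mean of the 3 controls in control 2, and at -0.16 and -0.15 in controls 1 and 3. The medians in knockouts 1, 2 and 3 were -0.30, -0.38 and -0.42. All 3 knockout medians were thus below those of all 3 controls, but they lay closer to controls 1 and 3 than these lay to control 2. Over all tested genes each library's median was between -0.01 and 0.00. Among knockouts, knockout 1 was the highest for 30 of the 44 members (68.2%), against 36.1% of all tested genes. Results are therefore given with and without control 2. Because control 2 was singled out for its high values of these same genes, most members must move upward when it is left out.

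**Figure D1:**
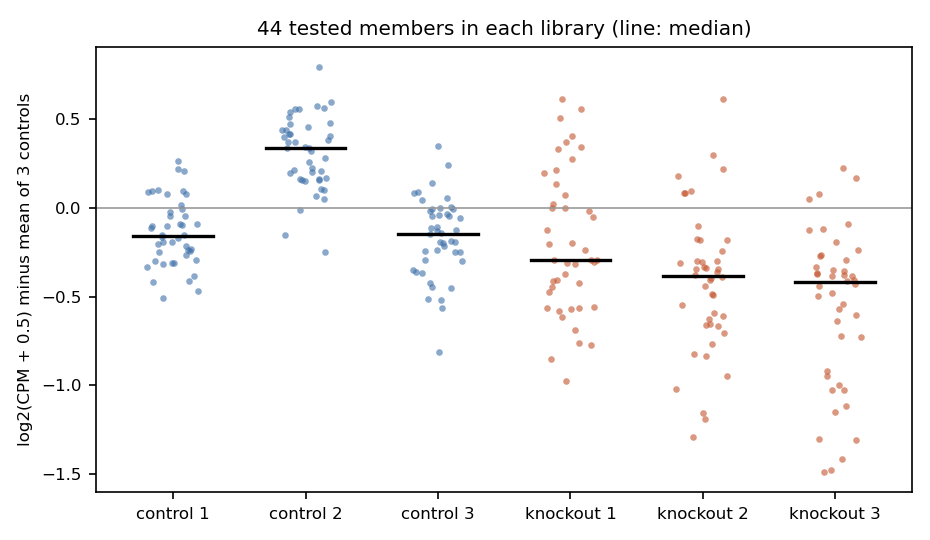
Each point is 1 of the 44 tested members in 1 library, plotted as log2(CPM + 0.5) minus the mean of the 3 control libraries (y axis), with a black line at the library's median. Control 2 has a median of 0.34 and controls 1 and 3 are at -0.16 and -0.15, while the 3 knockouts lie at -0.30, -0.38 and -0.42.

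Across the whole set, 15 members were lower in the knockout hearts, 0 were higher and 29 did not pass the test (edgeR quasi-likelihood test, Benjamini-Hochberg adjusted p under 0.05 over all genes). At an unadjusted p under 0.05, 20 were lower and 0 higher, counts for which no share of all genes is given here. Among all 14302 tested genes 17.8% were called lower and 18.7% higher, and among the members 34.1% were called lower. The 45th member, the 2'-5' oligoadenylate synthetase gene Oas3, fell under the filter with 7, 13 and 8 reads in controls and 15, 9 and 7 in knockouts. The median log2 fold change of the 44 tested members was -0.36, against -0.01 for all genes, and 38 of the 44 had a negative value. The 3 knockout libraries were all below the 3 controls for 16 members, which held for 24.5% of all tested genes, and above all controls for 0, which held for 26.2%. The changes called were modest, from -0.38 for Irf9 to -1.40 for Isg15. The authors' deposited table, made from the same libraries, called 11 of these 15 lower, and 0 members higher, at the same threshold. In it 13.1% of 16267 genes were lower and 14.5% higher.

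Without control 2 most of these calls were lost. Of the 15 members called lower, 2 were still called, Isg15 and Oas2, although all 15 had negative values. Ifit2 and H2-K1 were then called higher, the median of the members was -0.16, and 4.55% of members were called lower against 12.2% of all genes. At an unadjusted p under 0.05, 13 members were lower and 2 higher in that comparison. Without the share of all genes at that threshold these counts cannot be judged. Leaving out knockout 2 or knockout 3 left 6 and 7 of 45 members called lower, where 12.3% and 15.6% of all genes were. The sign of the small differences depended on the scaling. With library size alone, in place of TMM, the median of all genes moved to 0.68 and that of the members to 0.34. Relative to all genes the members were then lower by the difference of -0.34, close to the -0.35 under TMM, but 6 of the 15 members called lower turned positive, 1 member was still called lower where 3.86% of all genes were, and 10 members were called higher where 56.6% of all genes were.

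**Figure D2:**
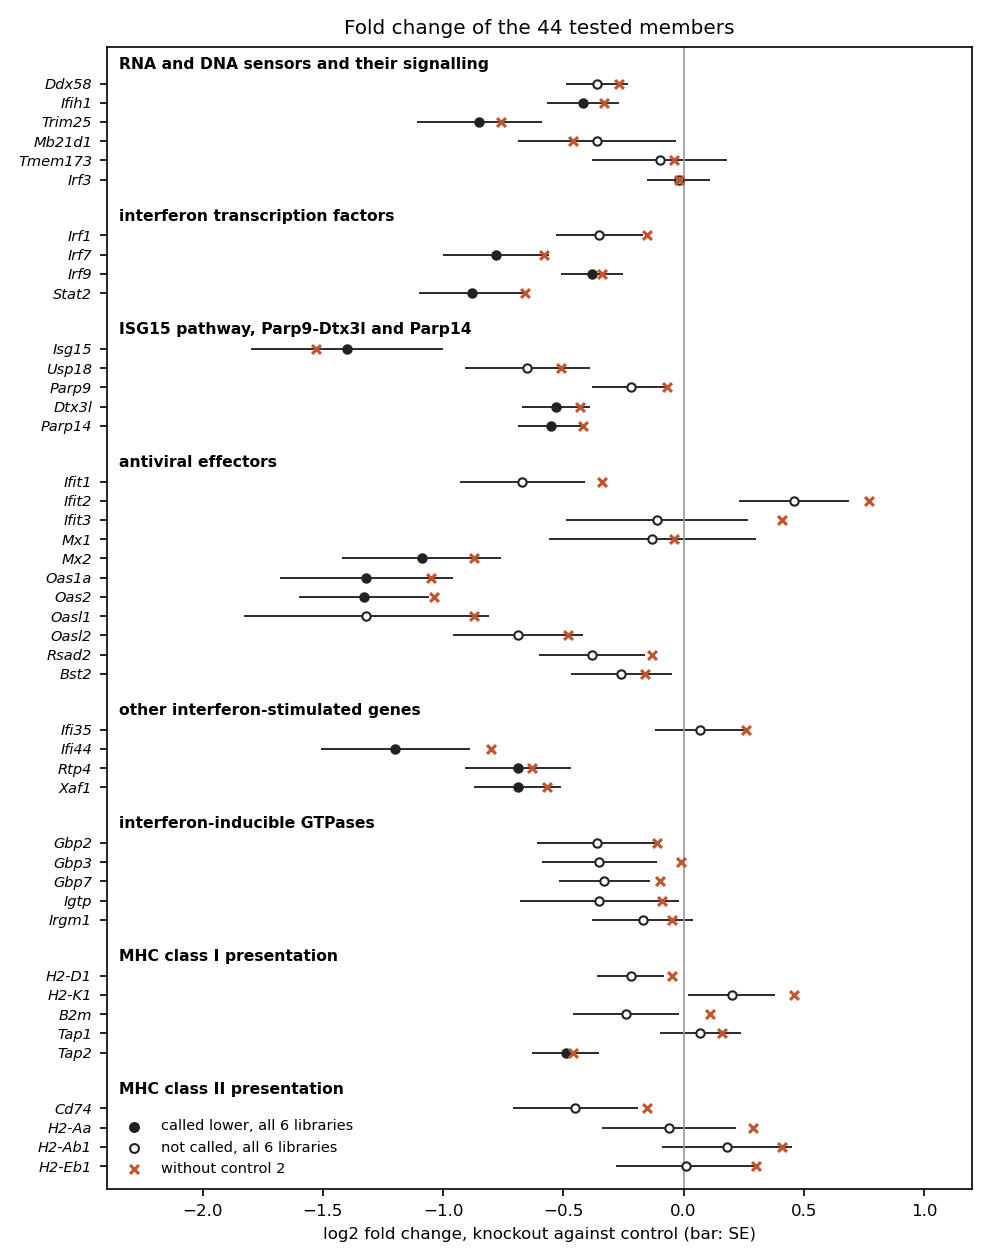
Circles give the log2 fold change of knockout against control (x axis) with its SE for the 44 tested members, sorted by role, and are filled where the gene was called lower with all 6 libraries. Orange crosses give the value without control 2, which was higher than with all libraries for most members and moved the median from -0.36 to -0.16. Control 2 was the highest control for 36 of the 44, so the direction of this move follows from leaving it out.

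The role groups and gene lists below mostly hold few genes. As a background for their counts, 17.8% of all tested genes were lower and 18.7% higher with all 6 libraries. Without control 2 these shares were 12.2% and 13%, and with library size alone 3.86% and 56.6%. The sensors come first in the pathway. Of 6 genes of RNA and DNA sensing 2 were lower and 4 did not pass the test, with a median of -0.36, or -0.30 without control 2, where 0 were called, and 0.33 with library size alone. Trim25 (chromosome 11, 88999376 to 89020293 in mm10), a ubiquitin ligase that acts with RIG-I, was at 18.58, 28.11 and 29.62 CPM in controls and at 20.01, 10.92 and 10.95 CPM in knockouts. The groups overlapped because knockout 1 was above control 1, and the log2 fold change was -0.85 (SE 0.26, adjusted p = 0.0274, and -0.76 with adjusted p = 0.106 without control 2). The call of Trim25 was also lost with library size alone (-0.12), with the replicate block, and without control 3, knockout 2 or knockout 3. Ifih1, the MDA5 sensor of long double-stranded RNA (chromosome 2, 62595798 to 62646255), lay just inside the threshold. Its controls were at 12.19, 16.34 and 15.45 CPM and its knockouts at 10.35, 11.21 and 11.11 CPM, without overlap (-0.42, SE 0.15, adjusted p = 0.0499, and -0.33 with adjusted p = 0.185 without control 2). With library size alone Ifih1 turned to 0.29, and its call was also lost with DESeq2, limma-voom, TMM without mitochondrial-encoded genes and no filter. The replicate block, the authors' deposited table, and leaving out control 3 or any knockout lost it as well. Ddx58, the RIG-I gene, lay just outside the threshold at 15.50, 18.78 and 16.26 CPM against 13.37, 13.12 and 12.80 CPM (-0.36, SE 0.13, adjusted p = 0.0544), again without overlap.

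Irf3, the transcription factor downstream of these sensors, differed little between the groups. Its controls were at 16.85, 17.22 and 18.12 CPM and its knockouts at 15.02, 18.46 and 18.03 CPM (-0.02, SE 0.13, adjusted p = 0.924). The DNA branch was expressed weakly and did not pass the test. The cGAS gene Mb21d1 had a value of -0.36 (SE 0.33) on 0.81 to 1.5 CPM per library. Tmem173, which encodes the adaptor STING, had -0.10 (SE 0.28) on 2.33 to 4.30 CPM.

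Transcription factors that carry the interferon signal were lower for 3 of 4 members. Irf3, also a transcription factor but not called (-0.02), was counted with the sensors and is not among these 4. Their median was -0.58, or -0.46 without control 2, where 0 of the 4 were called, and 0.12 with library size alone. Stat2 (chromosome 10, 128270559 to 128292849) was at 11.36, 20 and 15.80 CPM in controls and at 10.19, 7.72 and 7.41 CPM in knockouts. The groups did not overlap, and control 1 was only slightly above knockout 1 (-0.88, SE 0.22, adjusted p = 0.011, and -0.66 with adjusted p = 0.0585 without control 2). Irf7, the factor that amplifies interferon alpha transcription (chromosome 7, 141262706 to 141266481), was at 6.32, 10.11 and 7.67 CPM against 5.15, 4.99 and 3.62 CPM. It fell by 0.78 on the log2 scale without overlap (SE 0.22, adjusted p = 0.0201, and by 0.58 with adjusted p = 0.099 without control 2). Irf9, the DNA-binding partner of Stat2, showed a smaller and more even difference. Its controls were at 15.80, 15.67 and 13.47 CPM and its knockouts at 11.41, 11.73 and 11.35 CPM (-0.38, SE 0.13, adjusted p = 0.0433, and -0.34 with adjusted p = 0.143 without control 2), a value that turned to 0.30 with library size alone. The call of Irf9 was also lost with DESeq2, with no filter, with the replicate block and in the authors' deposited table. Leaving out control 1 or any knockout lost it as well. Irf1, which acts downstream of interferon gamma, was at 10.38, 16.56 and 12.66 CPM against 9.61, 11.38 and 9.82 CPM and was not called (-0.35, adjusted p = 0.159, and -0.15 without control 2).

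In the ISG15 pathway and the Parp9-Dtx3l group 3 of 5 members were lower, with a median of -0.55, or -0.43 without control 2 and 0.16 with library size alone. Isg15, the ubiquitin-like protein that is attached to other proteins in infected cells (chromosome 4, 156199424 to 156200818), had the largest called difference. It was at 1.66, 1.44 and 2.44 CPM in controls and at 1.01, 0.64 and 0.32 CPM in knockouts (-1.40, SE 0.40, adjusted p = 0.0214). These levels rest on 22, 13 and 21 reads against 19, 11 and 4 reads. The call held without control 2 (-1.53, adjusted p = 0.0413) and was lost without control 1, control 3, knockout 2 or knockout 3. It was also lost with library size alone (-0.71, adjusted p = 0.138). Usp18, the protease that removes Isg15, was at 2.78, 4.22 and 3.83 CPM against 2.81, 1.80 and 2.17 CPM, with overlap of knockout 1 and control 1 (-0.65, adjusted p = 0.0795).

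Parp14, an ADP-ribosyltransferase (chromosome 16, 35832874 to 35871544), was the most abundant of this group in CPM. Controls were at 32.28, 43.89 and 37.29 CPM and knockouts at 27.38, 23.57 and 26.41 CPM, without overlap (-0.55, SE 0.14, adjusted p = 0.0109, and -0.42 with adjusted p = 0.0643 without control 2). The ubiquitin ligase gene Dtx3l (chromosome 16, 35926511 to 35939151) lies beside it. It was at 14.82, 18.78 and 16.73 CPM against 12.47, 11.73 and 10.55 CPM without overlap (-0.53, SE 0.14, adjusted p = 0.0167, and -0.43 with adjusted p = 0.0863 without control 2). Its partner Parp9 starts from the opposite strand at the same place, where 458 bases of exon are shared, so part of their reads cannot be told apart. Parp9 was not called, at 15.72, 19.22 and 13.47 CPM against 15.39, 12.89 and 13.12 CPM (-0.22, adjusted p = 0.298, and -0.07 without control 2). Both Parp14 and Dtx3l turned positive with library size alone, to 0.16 and 0.18.

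Antiviral effectors were the largest and most mixed group. Of 11 tested members 3 were lower, all of the Oas and Mx families, and 8 did not pass. The share called lower was 27.3%, against 17.8% of all genes. The median was -0.67, or -0.34 without control 2 and 0.04 with library size alone. Oas2 (chromosome 5, 120730333 to 120749853) makes the 2'-5' oligoadenylates that activate RNase L, and it had the smallest adjusted p of the 45 genes. It was at 5.42, 10.89 and 7.67 CPM in controls and at 3.66, 2.85 and 2.82 CPM in knockouts (-1.33, SE 0.27, adjusted p = 3.77e-03). The groups did not overlap, and the call held without control 2 (-1.04, adjusted p = 0.0187) and with library size alone (-0.61, adjusted p = 0.0465). Oas1a (chromosome 5, 120896256 to 120907521), in the same gene cluster, was at 1.43, 2.67 and 1.86 CPM against 0.85, 0.93 and 0.48 CPM. Its value was -1.32 (SE 0.36, adjusted p = 0.0168, and -1.05 with adjusted p = 0.085 without control 2) on 6 to 24 reads per library. Mx2, a dynamin-like GTPase gene (chromosome 16, 97535308 to 97560900), was at 2.63, 3.89 and 2.56 CPM against 1.86, 1.45 and 0.81 CPM (-1.09, SE 0.33, adjusted p = 0.0264, and -0.87 with adjusted p = 0.117 without control 2). Neither Oas1a nor Mx2 overlapped between the groups, and both had a negative value that was not called with library size alone.

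The effectors that were not called included the most abundant per length, Bst2, at a mean of 8.99 CPM per kb over the controls. Rsad2 had 4.44 by the same measure. Rsad2, which encodes viperin, an enzyme that makes a chain-terminating nucleotide, was at 14.22, 25.00 and 18.47 CPM in controls and at 15.18, 11.61 and 17.55 CPM in knockouts (-0.38, SE 0.22, adjusted p = 0.204, and -0.13 without control 2). The 3 Ifit genes, whose proteins bind viral RNA, did not share a direction. Ifit2 was at 10.91, 17.67 and 9.52 CPM against 19.05, 19.04 and 13.85 CPM, with a positive value of 0.46 (SE 0.23, adjusted p = 0.142). Without control 2 Ifit2 was called higher (0.77, adjusted p = 0.0241), as it was with no filter and with library size alone. Ifit1 had a value of -0.67 (adjusted p = 0.0722) and Ifit3 of -0.11 (adjusted p = 0.852), which moved to -0.34 and 0.41 without control 2. Control 2 was the highest of the 6 libraries for both, at 9.0 CPM for Ifit1 and 6.67 CPM for Ifit3. The values of the other effectors were -1.32 for Oasl1 (adjusted p = 0.0666), -0.69 for Oasl2 (adjusted p = 0.0669), -0.26 for the tetherin gene Bst2 and -0.13 for Mx1. Without control 2 they were -0.87, -0.48, -0.16 and -0.04. Oasl1 rests on 2 to 20 reads per library and did not overlap between the groups.

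Of 4 further interferon-stimulated genes 3 were lower, with a median of -0.69, or -0.60 without control 2, where 0 were called, and 0.01 with library size alone. Xaf1, whose protein binds the apoptosis inhibitor XIAP (chromosome 11, 72301629 to 72313733), was at 6.39, 8.33 and 6.85 CPM in controls and at 4.25, 4.35 and 4.75 CPM in knockouts. The groups did not overlap (-0.69, SE 0.18, adjusted p = 0.013, and -0.57 with adjusted p = 0.0643 without control 2), and the value turned to 0.01 with library size alone. Ifi44 (chromosome 3, 151730922 to 151749960) was at 3.84, 7.22 and 3.48 CPM against 2.49, 1.74 and 2.01 CPM (-1.20, SE 0.31, adjusted p = 0.0136), and its value was -0.80 (adjusted p = 0.0626) without control 2. Rtp4, a chaperone of membrane receptors (chromosome 16, 23520291 to 23614222), was at 5.04, 5.11 and 4.07 CPM against 3.02, 3.48 and 2.25 CPM (-0.69, SE 0.22, adjusted p = 0.0367, and -0.63 with adjusted p = 0.115 without control 2). The call of Rtp4 was also lost with DESeq2 (adjusted p = 0.065), in the authors' deposited table (adjusted p = 0.11) and with library size alone, where its value was near 0. Leaving out control 1 or knockout 3 lost it as well. A gene on the same strand overlaps 13.9% of the exon bases of Rtp4. Ifi35 was not called, at 8.43, 12.22 and 8.83 CPM against 8.38, 11.03 and 11.43 CPM (0.07, SE 0.19, and 0.26 without control 2).

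**Figure D3:**
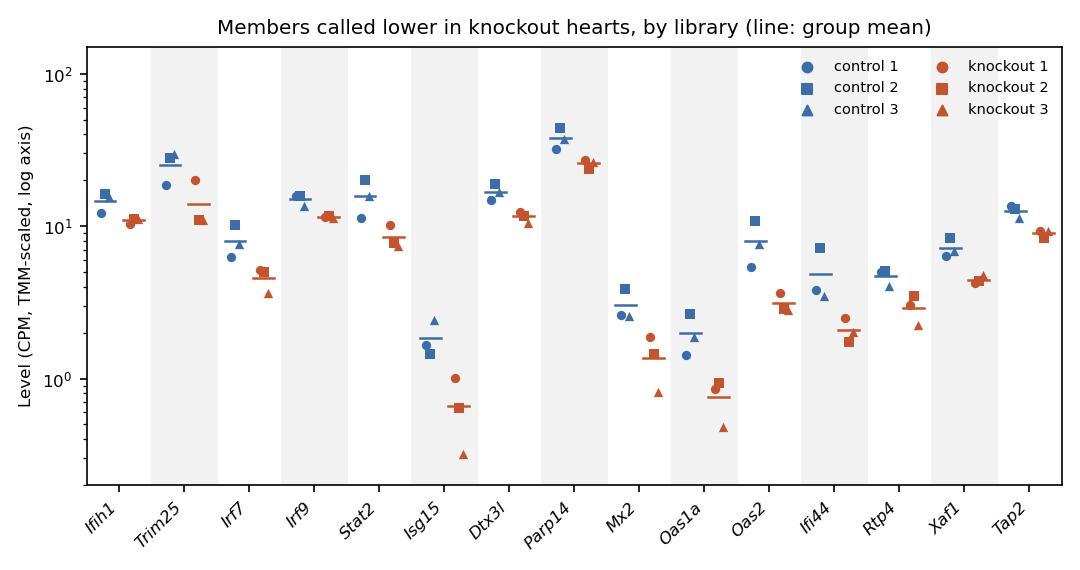
The plot shows the TMM-scaled level in CPM (log axis) of the 15 members called lower, with 1 symbol per library and a line at each group mean. Trim25 is the 1 gene whose groups overlap, at 18.58 CPM in control 1 and 20.01 CPM in knockout 1, and control 2 is the highest of the 6 libraries for 11 of the 15.

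The GTPases that attack the membranes around intracellular pathogens were called for 0 of 5 members. Their values ran from -0.36 to -0.17, and without control 2 the median moved from -0.35 to -0.09, and with library size alone to 0.36. Gbp7 was at 13.17, 18.78 and 11.38 CPM in controls and at 11.36, 10.74 and 12.32 CPM in knockouts (-0.33, SE 0.19, adjusted p = 0.189, and -0.10 without control 2). Irgm1 was at 9.48, 12.67 and 11.03 CPM against 12.68, 8.77 and 7.73 CPM, with knockout 1 the highest of all libraries (-0.17, SE 0.21, adjusted p = 0.551, and -0.05 without control 2). Gbp2, Gbp3 and Igtp had values of -0.36, -0.35 and -0.35 with adjusted p from 0.272 to 0.43, and of -0.11, -0.01 and -0.09 without control 2. Control 2 was the highest control for all 5. Among GTPases of these families outside the members, Gbp5 (-1.38, adjusted p = 5.06e-03), Irgm2 (-0.83, adjusted p = 9.89e-03) and Iigp1 (-1.06, adjusted p = 0.0211) were called lower. Of these, Gbp5 alone was still called without control 2 (-1.12, adjusted p = 0.0286). Gbp4, Gbp6, Gbp9, Ifi47, Tgtp1 and Tgtp2 were tested and not called.

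MHC class I molecules show peptides from inside the cell, and the genes of their light and heavy chains were the most abundant of the set. Per length, B2m, the light chain of class I molecules, reached 89.3 ± 32.2 CPM per kb of exon over the 3 controls and 75.6 ± 9.1 over the 3 knockouts (SD, n = 3). The heavy chains followed, H2-D1 at 23.2 ± 4.19 and H2-K1 at 18.4 ± 5.21 CPM per kb in controls, and their mean ± SD ranges overlapped. Members outside antigen presentation were lower, from 0.137 CPM per kb for Oas3 to 8.99 for Bst2. B2m was at 61.47, 108.79 and 60.17 CPM in controls and at 72.81, 65.09 and 57.16 CPM in knockouts, with control 2 far above the rest (-0.24, SE 0.22, adjusted p = 0.42, and 0.11 without control 2). H2-K1 was at 46.04, 71.56 and 44.14 CPM against 68.14, 61.37 and 55.55 CPM. It was not called with all libraries (0.20, SE 0.18, adjusted p = 0.426) and was called higher without control 2 (0.46, adjusted p = 0.0494). H2-D1 had a value of -0.22 (SE 0.14) and Tap1 of 0.07 (SE 0.17), which were -0.05 and 0.16 without control 2. Of the 5 class I members 1 was lower (20%, against 17.8% of all genes), the transporter subunit Tap2 (chromosome 17, 34203527 to 34216321). Its controls were at 13.47, 13.00 and 11.27 CPM and its knockouts at 9.23, 8.42 and 9.34 CPM, without overlap (-0.49, SE 0.14, adjusted p = 0.0219, and -0.46 with adjusted p = 0.083 without control 2). Tap2 turned to 0.20 with library size alone, and its call was lost with no filter and in the authors' deposited table. Tap2 also lost its call with the replicate block and without control 1 or knockout 2. An antisense transcript overlaps 14.1% of its exon bases. The median of the 5 class I members was -0.22 with all libraries, 0.11 without control 2 and 0.49 with library size alone, where 3 were called higher.

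MHC class II molecules are made mainly by antigen-presenting cells, and 0 of 4 members were called, with a median of -0.02, or 0.29 without control 2 and 0.68 with library size alone, where 3 were called higher. The invariant chain gene Cd74 was at 18.28, 30.23 and 18.12 CPM in controls and at 22.71, 13.01 and 12.80 CPM in knockouts (-0.45, SE 0.26, adjusted p = 0.211, and -0.15 without control 2). H2-Aa was at 8.28, 12.67 and 5.46 CPM against 10.61, 7.72 and 6.84 CPM (-0.06, SE 0.28, adjusted p = 0.889, and 0.29 without control 2). H2-Ab1 and H2-Eb1 had values of 0.18 (SE 0.27) and 0.01 (SE 0.29), which were 0.41 and 0.30 without control 2. With all 4, control 2 was the highest control and knockout 1 the highest knockout. Ciita, the regulator of class II transcription and not a member, averaged 0.762 ± 0.386 CPM over the 3 controls and 0.868 ± 0.444 CPM over the 3 knockouts (SD, n = 3) and was not called (0.20, SE 0.49, edgeR adjusted p = 0.773).

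Marker genes of immune and vascular cells were read in the same libraries. In bulk RNA, fewer cells of a type and less RNA per cell cannot be told apart. Of 8 markers shared by leukocytes 7 were tested and 0 were called, the smallest p being that of Lcp1 (-0.43, adjusted p = 0.1). Their summed level was 56.8 to 65.9 CPM in controls and 44.7 to 71.5 CPM in knockouts, and knockout 1 was the highest knockout for all 7. Of 12 macrophage markers 1 was lower, Lyve1 (-0.87, adjusted p = 3.89e-03), and the sums were 206 to 222 CPM against 188 to 226 CPM. Of 8 monocyte and neutrophil markers 3 were tested and 1 was higher, the lysozyme gene Lyz2 (0.52, adjusted p = 0.0108), with sums of 43.4 to 58.3 CPM against 74.4 to 80.7 CPM, and Ly6g had 0 reads. Dendritic cell markers were called for 0 of the 2 tested among 8, with sums of 26.6 to 33.8 against 24.4 to 27.9 CPM and the smallest p at Zbtb46 (-0.22, adjusted p = 0.368). The 7 B cell and 12 T and NK cell markers were all under the filter, with sums of 1.22 to 2.48 CPM and 1.28 to 2.87 CPM over the 6 libraries. Cd3e, which defines T cells, had 0 to 2 reads per library and Cd79a, which defines B cells, 1 to 4.

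Endothelial and cardiomyocyte markers had a negative median, as had the markers shared by leukocytes and those of dendritic cells, both at -0.12. The medians of macrophage, of monocyte and neutrophil, and of fibroblast markers were positive, at 0.04, 0.52 and 0.28. Of 8 endothelial genes 5 were lower (62.5%) and 0 higher, against 17.8% and 18.7% of all genes. Among the 5 were the receptors Kdr (-0.96, adjusted p = 7.17e-04), Flt1 (-0.70, adjusted p = 2.38e-03) and Tek (-0.43, adjusted p = 0.0192). The sum of all 8 was 653 to 739 CPM in controls and 482 to 537 CPM in knockouts, without overlap. Their median was -0.36, or -0.35 without control 2, where 2 were called lower, and 0.33 with library size alone. Cardiomyocyte markers were lower for 3 of 9 and higher for 1, with Ryr2 at -1.61, Myh6 at -1.32 and Myh7 at 3.42, with a median of -0.39 that turned to 0.30 under library size alone. Fibroblast markers were called for 0 of 7, with the smallest p at Col3a1 (0.62, adjusted p = 0.0518) and sums of 1042 to 1593 against 1527 to 2530 CPM. The part of these cell types in the members' values was not tested.

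Other genes of the pathway were read from lists chosen by function. Interferon genes themselves were close to absent: of 21 ligand genes 20 had 0 reads in all 6 libraries, including Ifnb1 and Ifng, and Ifnab had 1 read. A count of 0 over the 76840311 counts of the series allows a level of up to 0.039 CPM on unscaled library sizes, for counting error alone. Among 11 receptor and JAK-STAT genes 2 were lower and 1 was higher, whereas 0 were lower and 7 higher with library size alone (median 0.11 against 0.81). The receptor chain Il10rb and the kinase Jak1 were lower, at -0.59 and -0.42, which turned to 0.11 and 0.29 with library size alone, and the receptor chain Ifnar2 was higher, at 0.40 (adjusted p = 0.0351). Without control 2, 0 of the 11 were called. Of 21 tested sensors and adaptors outside the members 4 were lower and 2 higher, and 0 were lower and 13 higher with library size alone. Mavs, the mitochondrial adaptor that relays the signal of RIG-I and MDA5, was at 35.51, 35.78 and 47.51 CPM in controls and at 17.57, 23.52 and 24.31 CPM in knockouts (-0.86, SE 0.16, adjusted p = 2.96e-03). Its groups did not overlap, and the call held without control 2 (-0.92, adjusted p = 8.62e-03) but not with library size alone (-0.16, adjusted p = 0.504). Tlr3, the endosomal receptor of double-stranded RNA, was lower at -0.61 (adjusted p = 0.0129), and its value was 0.09 with library size alone. Tlr4, the receptor of bacterial lipopolysaccharide, rose from 29.27, 34.11 and 23.81 CPM to 70.47, 63.64 and 62.40 CPM (1.17, SE 0.14, adjusted p = 2.43e-04).

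Among 11 tested nucleases and editors that limit self nucleic acid 3 were lower and 1 higher, and 0 were lower and 6 higher with library size alone. The RNA editing enzyme gene Adar was at -0.47 (adjusted p = 0.0259), the mitochondrial helicase gene Supv3l1 at -0.40 (adjusted p = 0.0355) and Rnaseh2b at 0.55 (adjusted p = 0.0391). Without control 2 Adar and Supv3l1 were not called (-0.43 and -0.41), and with library size alone they turned to 0.24 and 0.31. Of 12 tested negative regulators 1 was lower, Nlrx1, which encodes a mitochondrial protein (-1.12, adjusted p = 2.86e-03, and -1.0 without control 2, adjusted p = 0.0164).

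A longer list held 75 interferon-stimulated genes outside the members, and it was not tested against them. Of 60 tested 21 were lower (35.0%) and 2 higher, with a median of -0.38, where 17.8% and 18.7% of all genes were called. Without control 2, 9 of 62 were lower and 0 higher, with a median of -0.36, where 12.2% and 13% of all genes were called. The genes with the smallest adjusted p were Helz2, Slfn5 and Tor1aip1. Helz2 was at 41.08, 42.89 and 48.20 CPM in controls and at 25.90, 19.92 and 24.56 CPM in knockouts (-0.91, SE 0.13, adjusted p = 6.66e-04). Slfn5 was at 93.67, 108.57 and 99.66 CPM against 58.43, 61.78 and 67.39 CPM (-0.69, SE 0.12, adjusted p = 1.58e-03). Tor1aip1 had a value of -0.62 (adjusted p = 1.73e-03). Neither of the first 2 overlapped between the groups, and all 3 were still called without control 2, at -0.92, -0.62 and -0.57. With library size alone 0 genes of this list were lower and 14 were higher, where 3.86% and 56.6% of all genes were. The median of the list was then 0.30, below the 0.68 of all genes.

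Other antigen presentation genes went both ways. Of 22 tested class I genes 4 were lower and 1 higher, whereas 1 was lower and 8 higher with library size alone (median -0.28 against 0.42). The proteasome activator subunit Psme1 was at 42.13, 44.89 and 36.70 CPM in controls and at 16.82, 23.81 and 21.17 CPM in knockouts (-1.0, SE 0.15, adjusted p = 7.26e-04). The non-classical class I gene H2-T24 was lower at -1.46 (adjusted p = 1.05e-03), and the immunoproteasome subunit gene Psmb10 was higher at 0.70 (adjusted p = 0.0159). These 3 calls held without control 2. Of 12 tested class II genes 1 was lower and 1 higher, whereas 0 were lower and 7 higher with library size alone (median 0.14 against 0.82). Nfyc, a subunit of a general promoter-binding factor, was at -0.66 (adjusted p = 7.51e-03). Ctss, the protease that trims the invariant chain, rose from 7.22, 9.89 and 7.43 CPM to 20.32, 13.12 and 13.04 CPM (0.93, SE 0.21, adjusted p = 7.60e-03).

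Several members share sequence with other genes, so their reads may be split between copies. Transcripts of Ifit3 were 97.8% identical to Ifit3b over 1700 bases and those of Oas1a 97.6% to Oas1g over 1861 bases. Mx1 and Mx2 were 95.3% identical over 843 bases. Shorter stretches of 482, 322 and 287 bases with about the same identity linked Isg15, H2-D1 and H2-K1 to other annotated genes. The values of these 7 members are uncertain to that extent. A further 8 members shared only 133 to 197 bases with another gene, and Igtp overlaps 162 exon bases of Irgm2 on the same strand.

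**Figure D4:**
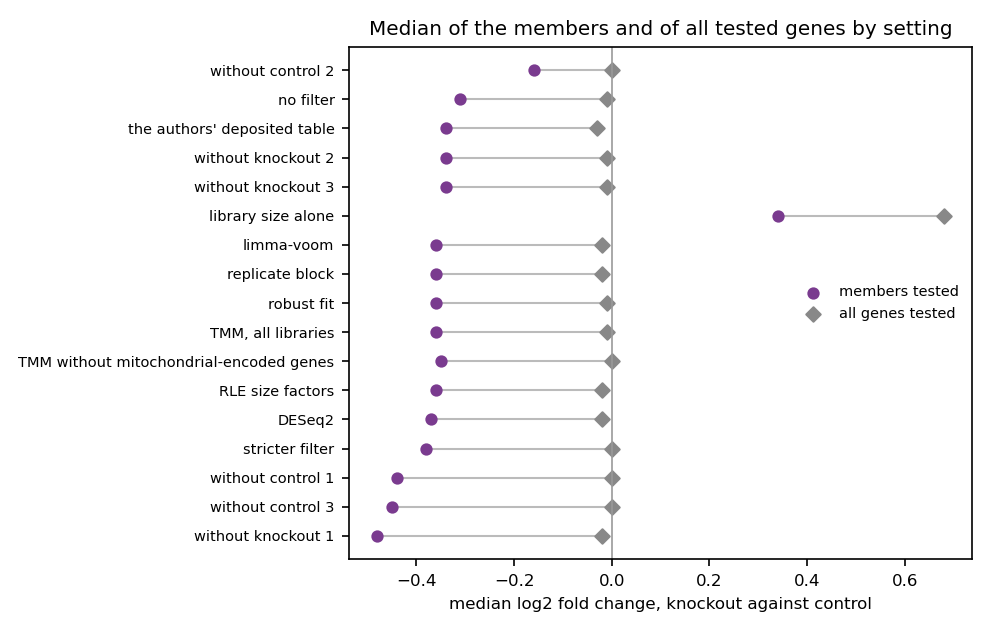
For each setting of the analysis, the circle is the median log2 fold change of the tested members and the diamond that of all tested genes (x axis, knockout against control). The members lie below all genes in each setting drawn, by -0.35 with TMM, by -0.34 with library size alone, where both medians are positive, and by -0.15 without control 2.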

How the data were processed

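Gene-level RNA sequencing counts were deposited for the hearts of 3 control and 3 knockout mice, 1 column per mouse, although the series mentions technical replicates. Per the submitters' processing notes, the tools were DESeq2 1.16.1, featureCounts 1.5.1, SAMtools 1.5 and HISAT2 2.0.5 and the build was mm10, and no source used here gives the strand setting. The raw counts deposited by the authors are whole reads per gene. Their deposited results table holds, per the file headers, a mean normalized signal, log2 fold changes with errors, a test score, and p-values with adjusted p-values.

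All genes were fitted together in edgeR 4.0.16 (R 4.3.3) with the quasi-likelihood test, TMM scaling and filterByExpr at a minimum count of 10, and p-values were adjusted by Benjamini-Hochberg over 14302 genes at a threshold of 0.05. The 3 controls and 3 knockouts entered with no covariate. Level is CPM on TMM-scaled library sizes, and CPM per kb uses GENCODE M21 exon length. Near-identical transcripts were sought with blastn 2.17.0 at 95% identity over at least 100 bases. Depth ran from 9850100 to 14461110 counts, so 1 read was worth 0.0531 to 0.116 CPM, and intervals cover counting error only. Replicate libraries differed beyond sampling noise, with a chi-square of 9 to 95.9 per degree of freedom. Counts were also simulated for 14054 genes of the knockout against control comparison, with 13863 of them unchanged, of which 10 were called. The fit recovered 6% of the genes set to a 1.5-fold change, 68% at 2-fold and 98% at 4-fold. Far more genes were called in the data, 5215 of 14302, so the adjustment was stricter in the simulation. These shares therefore do not give the power of the real comparison. An exact permutation test of 3 against 3 cannot go below p = 0.1, so single values were not tested that way.

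The members and the gene lists were chosen with earlier results of these data known. In each role group the values of every library are given for at most 4 members called (lowest adjusted p first) and at most 2 not called (highest mean level first). From each other list up to 3 called genes with the smallest adjusted p are named, or the 1 gene with the smallest p where none was called. Outside that rule, tested GTPases of the longer list are named beside the GTPase members. Ifnb1, Ifng, Ciita and Elac2 are named whatever their values, and 1 further gene named by that rule is not reported here. The alternatives tried were DESeq2 1.42.0, a robust edgeR fit and limma-voom (limma 3.58.1); scaling by RLE, by library size alone or by TMM computed on nuclear genes; the filter left out or raised to 50 counts in 3 libraries; and a replicate block, leaving out each library, and the authors' deposited calls. The deposited normalized counts were not used here.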

Additional observations from a re-analysis of the deposited data

How the results depend on the processing

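With library size alone 10 members were called higher and 1 lower, the median of the members was 0.34 and 8645 genes were called in all. In all 28 of the 38 members with a negative value turned positive there, and those called under either scaling were Ifih1 (0.29), Irf3 (0.68), Irf9 (0.30), Dtx3l (0.18), Parp14 (0.16), Xaf1 (0.01), Irgm1 (0.54), H2-D1 (0.49), Tap2 (0.20) and H2-Aa (0.64). With no filter 1 member was called higher, Ifit2. When each library was left out in turn, there were 2 to 17 members lower, 0 to 2 higher, a median of -0.48 to -0.16 and 3694 to 5837 genes called in all, while Elac2 stayed between -1.35 and -1.21. The lowest count of members called lower was 2, without control 2, where 12.2% of all genes were. The count was 6 without knockout 2 and 7 without knockout 3, where 12.3% and 15.6% of all genes were lower. With control 1, control 3 or knockout 1 left out no such share is given, so those counts cannot be judged. The cause of these shifts was not tested. RLE scaling, TMM without mitochondrial-encoded genes, limma-voom, the robust fit, DESeq2, the stricter filter and the authors' deposited table called 11 to 15 members lower and 0 higher. Of all genes, 17.3% were lower with TMM without mitochondrial-encoded genes, 16.2% with DESeq2 and 13.1% in the deposited table. For RLE scaling, limma-voom, the robust fit and the stricter filter no such share is given here. The stricter filter tested 35 members.

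With the replicate block 12 members were lower and 0 higher, the median was -0.36 and 4293 genes were called in all against 5215. The share of all genes called lower is not given for this setting, so the count of 12 cannot be judged. Ifih1, Trim25, Irf9 and Tap2 lost their call and Oasl1 gained one. The labels do not say that a replicate number marks a pair, and the correlations between the deviations of libraries with the same number were -0.198, 0.085 and -0.087, with 2 of 6 libraries correlating best with their own number. Depth limits the low members most: Isg15, Oas1a, Oasl1, Oas3 and Mb21d1 had 24 reads or fewer in each library.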
